A study of Mus musculus with 23 samples.

Results

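Skeletal muscle tissue was compared with embryonic stem cells (ESC) of the mouse by AIMS-seq, a sequencing readout of DNA methylation, in 7 of the 23 libraries of the series. The muscle group held 3 libraries of whole tissue from male mice, all untreated as far as the labels say, with no age given. Muscle 1 (QC-Y-27) and muscle 2 (QC-Y40) came from mice of mixed 129Sv/C57BL/6J background, and muscle 3 (Qc-BL6) from C57BL/6J. The ESC group held 4 libraries from 3 lines. CGR8 (129Sv, male) had a first library and a technical replicate, which were summed, while RD1 (129X1/SvJ, male) and E14Tg2 (129/Ola, sex not given) had 1 library each. ESC therefore entered every test as 3 lines (n = 3 muscle libraries and n = 3 ESC lines). No ESC line carries C57BL/6J and every muscle library does, so strain and cell type cannot be told apart here. The other 16 libraries are muscle precursor cells, myoblasts and myotubes of C57BL/6J mice and are used below only to place single values. Methylation data hold no expression of marker genes, so the tissue label could not be checked against markers.

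In AIMS-seq, DNA is digested first with SmaI, a blunt cutter blocked by methylation of its site CCCGGG, and next with XmaI, which opens the methylated sites that remain and leaves cohesive ends. Adaptors join the cohesive ends, so an amplified fragment has a methylated site at each end. A higher read count thus stands for more molecules methylated at both ends of a fragment, and it is not a percentage of methylation. The fragments compared here are the intervals between neighbouring sites that are under 2000 bp long and lie on chromosomes 1 to 19. They number 49684 of the 173430 in the deposited table, with a median length of 231 bp, and 22975 of them had no read in any muscle or ESC library. They took 96.3%, 95.7% and 96.7% of the reads of muscle 1, 2 and 3, against 86.8% to 88.9% of the reads of the 4 ESC libraries. In these fragments the muscle libraries held 8584105 to 10407813 reads, and the ESC lines held 7273250 to 21635008 reads.

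In mammals most CpG sites are methylated, while CpG islands, the CpG-rich stretches that overlap many promoters, are mostly kept free of methylation. Dnmt3a and Dnmt3b place new methylation and Dnmt1 copies it at replication, and the Tet enzymes oxidise it. Methylation of a promoter island usually goes with a silent gene, whereas methylation within a gene body is common in active genes. Early developmental genes such as the homeobox and T-box factors carry island-rich promoters that are kept silent in ESC largely by Polycomb rather than by methylation. Whole muscle holds myofibres beside satellite cells, fibroblasts, endothelial cells, blood cells, fat and nerve, so a different share of cells and a different methylation per cell cannot be told apart in its bulk DNA.

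The fragments below carry the main findings and are shown as the mm9 reference sequence, plus strand, with the CCCGGG at each end in capitals, since the methylation of those 2 sites is what the read count measures. Both sites lie in the reference at the ends of 100% of the fragments compared.
Six5 promoter, chr7:19679634-19679799: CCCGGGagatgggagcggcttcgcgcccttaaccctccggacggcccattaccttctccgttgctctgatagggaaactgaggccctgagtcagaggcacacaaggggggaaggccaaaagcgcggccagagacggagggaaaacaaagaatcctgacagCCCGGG
Tpm1 intron near the start, chr9:66896514-66896772: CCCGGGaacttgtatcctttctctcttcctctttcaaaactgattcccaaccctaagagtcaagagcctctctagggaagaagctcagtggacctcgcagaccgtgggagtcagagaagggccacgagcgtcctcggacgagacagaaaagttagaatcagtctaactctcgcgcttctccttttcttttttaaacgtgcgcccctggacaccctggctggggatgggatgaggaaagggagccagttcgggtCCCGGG
Eno3 and Pfn1 promoter, chr11:70468727-70469004: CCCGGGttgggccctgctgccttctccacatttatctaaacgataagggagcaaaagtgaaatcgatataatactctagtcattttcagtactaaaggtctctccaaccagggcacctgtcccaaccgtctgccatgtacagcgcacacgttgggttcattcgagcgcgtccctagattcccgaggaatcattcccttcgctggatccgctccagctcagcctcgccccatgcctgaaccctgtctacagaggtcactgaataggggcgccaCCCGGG
Dnmt3b intron near the start, chr2:153475766-153475967: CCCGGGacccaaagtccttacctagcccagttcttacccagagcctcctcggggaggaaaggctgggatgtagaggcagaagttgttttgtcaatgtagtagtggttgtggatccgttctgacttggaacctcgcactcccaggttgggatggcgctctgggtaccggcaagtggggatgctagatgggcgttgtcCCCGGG
Cdh15 coding exon, chr8:125389042-125389278: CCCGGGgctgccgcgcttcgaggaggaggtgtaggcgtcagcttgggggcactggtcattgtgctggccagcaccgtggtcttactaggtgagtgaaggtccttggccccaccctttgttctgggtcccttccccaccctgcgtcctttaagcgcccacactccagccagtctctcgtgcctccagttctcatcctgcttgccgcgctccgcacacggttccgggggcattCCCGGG
Neb upstream, chr2:52194517-52194733: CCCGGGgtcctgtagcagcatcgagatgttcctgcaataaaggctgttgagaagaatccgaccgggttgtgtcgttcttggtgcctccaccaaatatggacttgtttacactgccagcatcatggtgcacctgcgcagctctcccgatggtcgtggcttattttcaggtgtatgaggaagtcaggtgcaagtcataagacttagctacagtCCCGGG
Cacng1 upstream, chr11:107579668-107579922: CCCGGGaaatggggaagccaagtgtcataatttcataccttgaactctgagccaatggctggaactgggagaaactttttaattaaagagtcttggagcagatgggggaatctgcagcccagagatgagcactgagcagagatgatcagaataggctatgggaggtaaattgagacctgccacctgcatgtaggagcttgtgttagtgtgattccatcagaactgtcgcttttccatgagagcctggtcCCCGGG
Myf5 coding exon, chr10:106921113-106921347: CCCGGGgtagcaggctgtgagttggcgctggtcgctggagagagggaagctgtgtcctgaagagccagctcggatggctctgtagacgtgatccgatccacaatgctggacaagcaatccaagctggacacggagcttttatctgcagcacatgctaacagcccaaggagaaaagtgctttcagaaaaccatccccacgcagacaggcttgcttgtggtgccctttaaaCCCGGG
The Six5, Tpm1, Eno3 and Cdh15 fragments lie in CpG islands as the deposited table marks them, and hold 9, 11, 13 and 13 CpGs. Their ratios of observed to expected CpG run from 0.552 to 0.685. The Dnmt3b fragment lies in an island shore and holds 6 CpGs. The Neb, Cacng1 and Myf5 fragments lie outside islands and hold 7, 1 and 7 CpGs. In muscle the first 4 of these 8 fragments had more reads than in ESC, the next 3 had fewer, and the Myf5 fragment was not called either way. The Cdh15 fragment also lies within the readthrough transcript Gm20388, and the Dnmt3b fragment overlaps the antisense transcript 7530422B04Rik, which AIMS-seq cannot tell apart from the named gene.

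Some libraries stood apart before any comparison. The 2 CGR8 libraries are technical replicates, yet 4023 of 15287 tested fragments (26.3%) differed by more than 4-fold between them, and 3988 of these were lower in the first library. In CpG islands 503 of 674 tested fragments differed by more than 4-fold. By the same measure RD1 and E14Tg2 differed at 3.15% of the tested fragments, RD1 and the second CGR8 library at 4.45%, and RD1 and the first CGR8 library at 28.4%. The first CGR8 library is thus the one that stands apart, and counts with the second CGR8 library alone are given where they matter. Among muscle libraries, muscle 3 and muscle 2 differed by more than 4-fold at 12.9% of tested fragments, muscle 3 and muscle 1 at 3.62%, and muscle 2 and muscle 1 at 3.25%. None of the 5 pairs compared, 2 of ESC and 3 of muscle, agreed within sampling noise. Y-linked fragments, which are outside the comparison, had 1749, 483 and 2399 reads in muscle 1, 2 and 3, against 1829 to 2943 in the 4 ESC libraries. Muscle 2 was thus the lowest there, although its label says male, and the part of this in the results was not tested. Nothing in the labels says that the 3 muscle libraries came from separate litters or days, so p-values measure the spread between these samples.

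Of the 49684 fragments, 15287 passed the filter on low counts and were tested. At an adjusted p under 0.05 (edgeR quasi-likelihood test, Benjamini-Hochberg over all fragments tested), 3998 fragments (26.2%) were higher in muscle and 4070 (26.6%) were lower, 8068 (52.8%) in all. Values of muscle and ESC did not overlap at 7867 of the 8068 called fragments, and at 9695 of all 15287 tested. A call thus nearly always came with such a gap, so a gap given below for a named fragment is no separate evidence. With the second CGR8 library alone the counts were 4445 higher and 4480 lower, and without muscle 1 they were 3253 higher and 2416 lower. The balance between directions depended on scaling. The median log2 change of tested fragments was -0.12 with TMM scaling, -0.61 with library totals, 0.04 with DESeq2 size factors and 0.33 with the whole deposited table in the fit. With library totals 3184 were higher and 5626 lower, and with the whole table in the fit 5172 were higher and 2851 lower. Under these 4 scalings together, 3184 fragments (20.8%) were higher and 2851 (18.6%) were lower throughout. Single levels are given in CPM, counts scaled to a common library size with TMM, and in RPM, scaled by library total alone, where other libraries of the series are included. A median below is on the TMM scale, to be read against -0.12 for all fragments tested. Counts of calls in a gene list are likewise to be read against 26.2% higher and 26.6% lower.

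CpG islands carried more reads in muscle. Island fragments took 3.42%, 4.72% and 1.58% of the reads of muscle 1, 2 and 3, against 0.393%, 0.670% and 0.430% of the reads of CGR8, RD1 and E14Tg2. Every muscle library lay above every ESC line, with a mean of 3.24% ± 1.58 in muscle and 0.498% ± 0.15 in ESC (SD, n = 3 each). The exact permutation test gave p = 0.1, two-sided, which is the smallest that 3 against 3 allows (adjusted p = 0.182 over 20 classes). Shores, the flanks of islands, took 7.28%, 8.43% and 5.34% of muscle reads, against 4.74%, 4.27% and 4.11% of ESC reads (exact permutation p = 0.1). The groups were separate there too, with muscle 3 the lowest of the muscle libraries. At these depths a 95% Wilson interval on a share was no wider than 0.0405 percentage points on either side, and it covers counting error only.

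**Figure D1:**
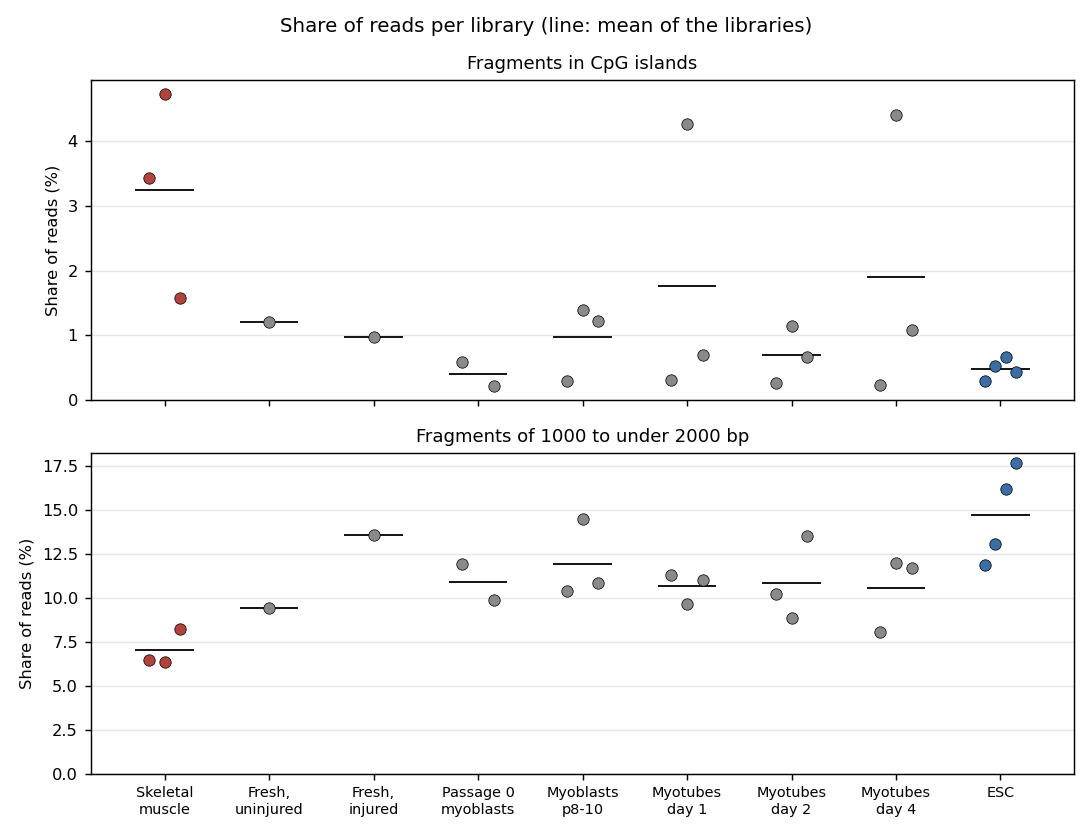
Share of reads (y axis, percent, linear from 0) in CpG island fragments (top) and in fragments of 1000 bp or more (bottom), 1 point per library in 9 groups, with a line at the mean of the libraries shown. Muscle (red, left) lies above the 4 ESC libraries (blue, right) in the top panel and below them in the bottom panel, and 2 myotube libraries reach 4.27% and 4.40% in islands.

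The same rise was seen fragment by fragment. Of 674 island fragments tested, 546 were higher in muscle and 23 lower, with a median log2 change of 3.85, which lay between 3.27 and 4.32 under the other 3 scalings. Island promoters gave 343 higher and 7 lower of 406. Shores gave 615 higher and 159 lower of 1180, with a median of 1.45. Outside islands and shores 2837 were higher and 3888 lower of 13433 (2282 lower without muscle 1), with a median of -0.30 that became 0.15 with the whole table in the fit. Promoter fragments of all kinds gave 834 higher and 237 lower of 1579 (140 lower without muscle 1), with a median of 1.66. Their balance differed by place, with 278 higher and 40 lower of 449 in shores and 213 higher and 190 lower of 724 outside islands and shores. The median of the last was -0.07, and it ranged from -0.56 to 0.38 over the scalings. Exon fragments gave 534 higher and 908 lower of 2644, with a median of -0.43 that became 0.021 with the whole table in the fit. In median terms the island fragments had 19.05, 28.5 and 9.78 CPM in muscle 1, 2 and 3, against 1.05, 3.03 and 1.65 CPM in CGR8, RD1 and E14Tg2. Muscle 3 thus had the lowest island levels of the muscle libraries and still lay above the ESC lines. With the second CGR8 library alone 545 island fragments were higher and 29 lower. Most island fragments, 14058 of 14732, had too few reads in either group to be tested, and a fragment that is near 0 in ESC passed the filter through its reads in muscle. With no filter, 4591 island fragments gave 666 higher and 84 lower, with a median of 0.51.

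The island share also varied widely among the other libraries of the series. Among the 16 libraries of precursor cells, myoblasts and myotubes, the island share ran from 0.220% to 4.40%. Myotubes of culture 27 held 4.27% at day 1 and 4.40% at day 4, but 1.14% at day 2, and the same culture held 1.40% as myoblasts. Of the 546 island fragments called higher, 0 lay above all 20 non-muscle libraries in every muscle library. Fragments at the promoter islands of gene families used by nearly every cell (ribosomal proteins, proteasome, polymerase II, translation factors and the like, 176 fragments picked by name after the data were seen) took 0.0353%, 0.0640% and 0.0199% of muscle reads, against 0.00110%, 0.00348% and 0.00177% of ESC reads. The share of these families was higher in muscle, as for the islands as a whole, and by a larger factor. Its mean was 0.0397% in muscle and 0.00212% in ESC, beside 3.24% and 0.498% for all islands. The part that such differences between libraries have in the island result was not tested.

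**Figure D2:**
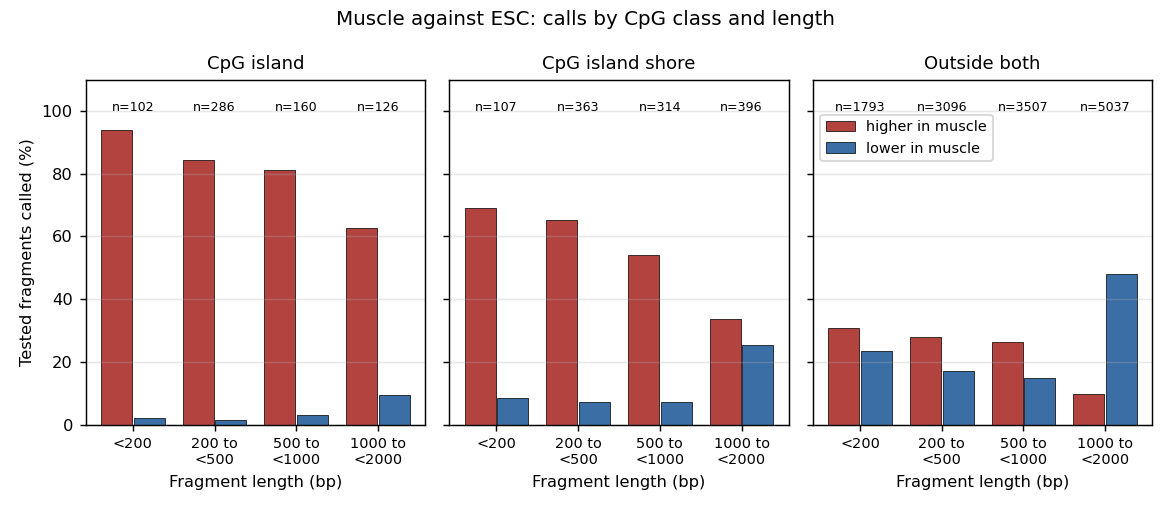
Percent of tested fragments (y axis, linear from 0) called higher (red) and lower (blue) in muscle, by fragment length in bp (x axis) within CpG islands, shores and the rest, with the number tested above each pair. In islands higher calls exceed lower calls in each length class, while outside islands and shores lower calls exceed higher ones at 1000 bp or more.

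Fragment length moved with the comparison. Fragments of 1000 bp or more took 6.45%, 6.36% and 8.23% of muscle reads, against 12.4%, 16.2% and 17.7% of the reads of CGR8, RD1 and E14Tg2, and the groups did not overlap (exact permutation p = 0.1). Of 5559 tested fragments of that length, 706 were higher in muscle and 2527 lower (median log2 change -1.07), against 1482 lower without muscle 1. The 3 shorter classes had medians of 0.55 (under 200 bp), 0.47 (200 to under 500 bp) and 0.30 (500 to under 1000 bp). When scaling and fit were done within each length class, an alternative added after the data were seen, 4113 fragments were higher and 3197 lower, and the longest class gave 1351 higher and 1115 lower. Island fragments gave 96 higher and 2 lower of 102 under 200 bp and 79 higher and 12 lower of 126 at 1000 bp or more. Of 6515 island fragments under 200 bp, 6413 had too few reads to be tested, and those tested had median levels of 9.02 CPM in muscle and 0.50 CPM in ESC. They passed the filter largely through muscle, so nothing is read from their count. Scaled within length classes, island fragments gave 554 higher and 24 lower of 682.

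Of 28 tested fragments at 19 genes that regulate muscle identity, 14 were higher in muscle, 3 were lower and 11 were not called. The median log2 change of 1.65 stayed positive under every alternative run. In a fit of the fragments outside CpG islands alone, 7 were higher and 2 lower of 19, with a median of 0.75. With no filter on low counts 19 were higher and 3 lower of 62, with a median of 1.00. The list was drawn up with earlier results known, and it is read here beside 26.2% higher and 26.6% lower among all fragments tested. Pax3, the paired-box factor of embryonic muscle progenitors, had a promoter island fragment of 725 bp with 161, 229.9 and 46.2 CPM in muscle 1, 2 and 3, against 1.93, 5.35 and 2.85 CPM in CGR8, RD1 and E14Tg2 (log2 change 5.44, SE 0.70, adjusted p = 0.00037). The groups were separate, and muscle 3 was the lowest of the muscle libraries. Six5, a homeobox factor next to the myotonic dystrophy kinase gene, had 7.24, 7.29 and 2.73 CPM in the 3 muscle libraries and 0.175, 0.981 and 0.329 CPM in the 3 ESC lines in its promoter island (log2 change 3.57, SE 0.76, adjusted p = 0.00413). Tead1, a factor that binds the MCAT element of muscle promoters, had 44.2, 40.6 and 17.7 CPM in the 3 muscle libraries and 0.702, 1.61 and 0.658 CPM in the 3 ESC lines in the shore 1268 bp after its start, a fragment that also is the promoter of 2310014F06Rik (log2 change 5.11, adjusted p = 0.000221). At these 3 promoters muscle 3 was the lowest muscle library, and it was still above the ESC lines. Pax7, the satellite cell factor, was singled out after its values were seen, since 5 of its 6 tested fragments were higher and none lower. Its island fragment of 296 bp in an intron had 235, 252 and 72.3 CPM in muscle 1, 2 and 3, against 3.11, 8.03 and 4.94 CPM in CGR8, RD1 and E14Tg2 (log2 change 5.13, adjusted p = 0.000266). Six4, in the same way, had 82.6, 116 and 41.3 CPM in the 3 muscle libraries and 1.62, 8.39 and 3.73 CPM in the 3 ESC lines in an intronic island (log2 change 4.14, adjusted p = 0.00108).

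Lower fragments in this list were at Cdh15, Tead4 and Mef2d. Cdh15 encodes M-cadherin, an adhesion molecule of satellite cells and myoblasts. Its island fragment had no read in muscle and 1.32, 6.16 and 13.8 CPM in the ESC lines, at least 42-fold lower in muscle against a floor of 3 reads over the group (adjusted p = 0.00325). The ESC lines differed widely among themselves there. In the other 16 libraries it had 0 to 1.62 RPM, and in the first CGR8 library 0.0774. Mef2d, a MADS-box partner of the myogenic factors, had 2.97, 4.1 and 8.52 CPM in the 3 muscle libraries and 14.5, 18.2 and 21.3 CPM in the 3 ESC lines in an exon (log2 change -1.78, adjusted p = 0.0137), and without muscle 1 its adjusted p was 0.0724. Tead4 had 2.85, 4.25 and 4.59 CPM in the 3 muscle libraries and 7.5, 29.6 and 18.1 CPM in the 3 ESC lines in an intronic fragment of 1637 bp (log2 change -2.23, adjusted p = 0.0091), and without muscle 1 its adjusted p was 0.0507. Scaled within length classes Tead4 was not called (adjusted p = 0.0593). The groups did not overlap at Mef2d or Tead4. Only 1 fragment of the list was lower without muscle 1. Myf5, the first myogenic factor to come on in the embryo, was among the genes to be named whatever their result. Its coding exon had 36.3, 59.8 and 24.6 CPM in muscle 1, 2 and 3, against 64, 46.3 and 47.6 CPM in CGR8, RD1 and E14Tg2, so the groups overlapped (log2 change -0.39, SE 0.39, adjusted p = 0.422). Myod1, the myogenic factor of myoblasts, had no tested fragment.

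Genes of the contractile apparatus had calls in both directions, at shares near those of all fragments tested. Of 40 tested fragments at 25 genes, 9 were higher (22.5%) and 10 lower (25.0%), beside 26.2% and 26.6% of all fragments tested. The lower calls were 5 without muscle 1 and 6 without E14Tg2. The median log2 change was -0.11, ranging from -0.64 to 0.35 over the scalings. Tpm1, alpha-tropomyosin, had 57.1, 86.4 and 19.4 CPM in muscle 1, 2 and 3, against 1.23, 2.94 and 2.74 CPM in CGR8, RD1 and E14Tg2 in the island fragment printed above (log2 change 4.58, SE 0.65, adjusted p = 0.000572). Ldb3, a Z-disc protein also called ZASP, had 41, 49.8 and 12.2 CPM in muscle 1, 2 and 3, against 0.175, 0.0892 and 0 CPM in CGR8, RD1 and E14Tg2 in an intronic island of 108 bp (log2 change 8.16, SE 0.85, adjusted p = 0.00014). Muscle was above every ESC line at both fragments, and muscle 3 was the lowest muscle library.

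The lower fragments named at contractile genes lay outside islands. Neb, nebulin, which sets thin filament length, had 3.09, 2.28 and 3.39 CPM in muscle 1, 2 and 3, against 12.9, 16.1 and 10.2 CPM in CGR8, RD1 and E14Tg2 at the fragment upstream of its start (log2 change -2.15, SE 0.44, adjusted p = 0.00357). Tnni2, fast troponin I, had 9.62, 16.7 and 16.5 CPM in the 3 muscle libraries and 24, 74.4 and 74.1 CPM in the 3 ESC lines 1961 bp before its start (log2 change -2.01, adjusted p = 0.00798). Both fragments had their highest muscle value under the lowest ESC value. A titin exon (Ttn, 303 bp), singled out after its values were seen and shared with Gm13938, had 109, 115 and 129 CPM in the 3 muscle libraries and 710.4, 487 and 471 CPM in the 3 ESC lines (log2 change -2.24, adjusted p = 0.000487). Xirp1, an actin-binding protein of muscle, had 0.95, 1.37 and 0.546 CPM in the 3 muscle libraries and 1.18, 5.0 and 3.73 CPM in the 3 ESC lines at its start (log2 change -1.79, adjusted p = 0.0493). At Xirp1 the highest muscle value was above the lowest ESC value. Its call was lost with the labels' replicate numbers as a block (adjusted p = 0.0759) and in 5 of the 6 fits that left out 1 library or line (0.0656 to 0.16). It was not called within length classes either (adjusted p = 0.399). Acta1, skeletal alpha-actin, was named whatever its result and had 170.4, 327 and 72.4 CPM in muscle 1, 2 and 3, against 84, 142 and 145 CPM in CGR8, RD1 and E14Tg2 at the shore 312 bp after its start (log2 change 0.62, SE 0.51, adjusted p = 0.331). The groups overlapped at Acta1, and its change was -0.0033 without muscle 2 and 1.05 without muscle 3 (adjusted p = 0.0498).

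**Figure D3:**
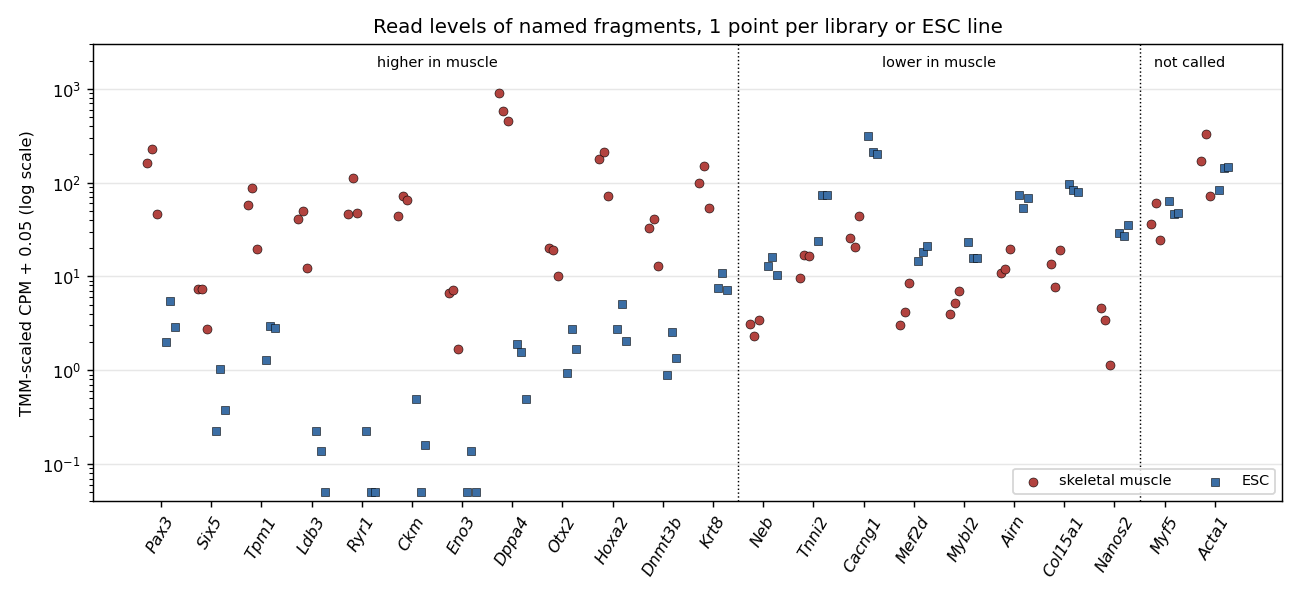
TMM-scaled CPM plus 0.05 (y axis, log scale) of 22 named fragments (x axis) in the 3 muscle libraries (red circles) and the 3 ESC lines (blue squares). Muscle lies above ESC at the 12 fragments on the left and below it at the next 8, and the groups overlap at Myf5 and Acta1.

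Genes of excitation-contraction coupling and the neuromuscular synapse gave 9 higher and 7 lower of 30 tested fragments, 4 lower without muscle 1. Their median of 0.13 ranged from -0.38 to 0.57 over the scalings. Ryr1, the calcium release channel of the sarcoplasmic reticulum, had 45.8, 112 and 47.8 CPM in muscle 1, 2 and 3, against 0.175, 0 and 0 CPM in CGR8, RD1 and E14Tg2 in an exon fragment of 412 bp (log2 change 9.47, SE 0.85, adjusted p = 6.85e-05). That fragment was present in the precursor cells and cultures as well, at 1.15 to 279 RPM. Kcnc1, a voltage-gated potassium channel, had 4.99, 5.47 and 5.35 CPM in the 3 muscle libraries and 0.0877, 0.178 and 0.11 CPM in the 3 ESC lines (log2 change 5.34, adjusted p = 0.000188). Dok7, an activator of the synapse kinase Musk, had 14.4, 35.5 and 10.0 CPM in the 3 muscle libraries and 2.06, 7.85 and 3.07 CPM in the 3 ESC lines at its promoter shore (log2 change 2.21, adjusted p = 0.02), with adjusted p = 0.0754 without muscle 2, 0.0689 without E14Tg2, 0.0679 with library totals and 0.0543 within length classes. The groups did not overlap at these 3 fragments, and Dok7 had the smallest gap. Cacng1, the gamma subunit of the muscle calcium channel, was lower, with 25.6, 20.7 and 43.8 CPM in muscle 1, 2 and 3, against 310.4, 214 and 203 CPM in CGR8, RD1 and E14Tg2 upstream of its start (log2 change -3.01, SE 0.40, adjusted p = 0.000444). Ache, acetylcholinesterase, had 6.53, 6.99 and 8.19 CPM in the 3 muscle libraries and 25.9, 17.2 and 22.3 CPM in the 3 ESC lines at an upstream fragment that also is the promoter of Ufsp1 (log2 change -1.59, adjusted p = 0.00686). Dtna, a dystrobrevin of the dystrophin complex, had 11, 7.14 and 18.1 CPM in the 3 muscle libraries and 43.2, 42.9 and 48.1 CPM in the 3 ESC lines in an intron (log2 change -1.88, adjusted p = 0.00453). The highest muscle value was under the lowest ESC value at each of these lower fragments.

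Metabolic genes of muscle gave 13 higher and 11 lower of 39 tested fragments. Their median of 0.30 ranged from -0.29 to 0.79 over the scalings for these same fragments, and was 0.55 over the 40 tested with the whole table in the fit. Without muscle 1, without muscle 2 or without E14Tg2 8 were higher, and without muscle 1 7 were lower. At promoters 6 of 10 tested fragments were higher and 0 lower. Among all tested promoter fragments 834 of 1579 (52.8%) were higher and 237 lower. The higher calls at promoters are thus not read as a trait of metabolic genes. Ckm, muscle creatine kinase, had 43.7, 71.7 and 64.6 CPM in muscle 1, 2 and 3, against 0.439, 0 and 0.11 CPM in CGR8, RD1 and E14Tg2 at its promoter, which is shared with Gm17405 (log2 change 7.99, SE 0.76, adjusted p = 9.08e-05). The 3 muscle libraries lay far above the ESC lines, where 2 of the 3 values were at or under 0.11 CPM. In the other 16 libraries this fragment ran from 0.111 to 30.6 RPM. Eno3, the muscle enolase, had 6.65, 7.14 and 1.64 CPM in muscle and a single read in the ESC lines together, in the island it shares with Pfn1. The ratio of muscle to ESC was 211, with an exact 95% counting interval of 37.1 to 8389 (adjusted p = 0.000744). Acadm, a dehydrogenase of fatty acid oxidation, had 37.9, 23.5 and 19.2 CPM in the 3 muscle libraries and 1.45, 2.94 and 2.08 CPM in the 3 ESC lines at its promoter shore (log2 change 3.65, adjusted p = 0.000444). Muscle was above every ESC line at these promoters. The fragments named next were lower and lay outside promoters. Ppard, a nuclear receptor for fatty acids, had 1.9, 3.19 and 4.59 CPM in the 3 muscle libraries and 13, 41.7 and 24.1 CPM in the 3 ESC lines in an intron (log2 change -3.02, adjusted p = 0.00225). Acacb, the mitochondrial acetyl-CoA carboxylase, had 0.95, 0.759 and 1.42 CPM in the 3 muscle libraries and 5.04, 19.6 and 23.1 CPM in the 3 ESC lines in an exon (log2 change -3.90, adjusted p = 0.0016). Art1, a surface ADP-ribosyltransferase of muscle, had 0.356, 0.152 and 0.655 CPM in the 3 muscle libraries and 3.16, 3.66 and 4.06 CPM in the 3 ESC lines in a shore that also lies in Chrna10 (log2 change -3.13, adjusted p = 0.00263). None of these lower fragments had overlapping groups.

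Of 21 tested fragments at 15 genes of the pluripotent state, 13 were higher in muscle, 2 were lower and 6 were not called. These counts stand beside 26.2% higher and 26.6% lower among all fragments tested. The median of 2.11 stayed positive under every alternative run, and with the fragments outside CpG islands alone 12 were higher and 2 lower of 20. With no filter on low counts 16 were higher and 4 lower of 54, with a median of 1.34. At promoters 6 of the 6 tested fragments were higher, beside 52.8% of all tested promoter fragments and 84.5% of those in islands. Most promoter fragments of the whole comparison, 11621 of 13200, were not tested. Dppa4, a chromatin protein of pluripotent cells, had 893, 582 and 448 CPM in muscle 1, 2 and 3, against 1.84, 1.52 and 0.439 CPM in CGR8, RD1 and E14Tg2 at its promoter (log2 change 8.92, SE 0.63, adjusted p = 3.49e-05). In the other 16 libraries that fragment had 132 to 402 RPM, so the ESC libraries were the low ones. Otx2, a homeobox factor of the epiblast and forebrain, had 20.1, 19.14 and 10.0 CPM in muscle 1, 2 and 3, against 0.877, 2.68 and 1.65 CPM in CGR8, RD1 and E14Tg2 upstream of its start (log2 change 3.26, SE 0.57, adjusted p = 0.0016). Rif1, a replication timing factor, had 5.94, 9.87 and 3.71 CPM in the 3 muscle libraries and 0.175, 0.357 and 0.219 CPM in the 3 ESC lines at its promoter shore (log2 change 4.68, adjusted p = 0.00054). The highest ESC value was under the lowest muscle value at both. Lin28b, singled out after its values were seen, encodes an inhibitor of let-7 processing and had 267, 189 and 78.1 CPM in the 3 muscle libraries and 2.94, 7.05 and 3.4 CPM in the 3 ESC lines in an exon (log2 change 5.32, adjusted p = 0.000206). Stat3, the effector of LIF signalling, was lower at an exon, with 0.237, 0.152 and 0.218 CPM in the 3 muscle libraries and 2.63, 7.32 and 8.55 CPM in the 3 ESC lines (log2 change -4.82, adjusted p = 0.000758). Stat3 was near the limit of counting in muscle, with 5 reads in all. Mybl2, a cell cycle factor, was lower in an intron of 176 bp, with 3.92, 5.16 and 6.88 CPM in the 3 muscle libraries and 23.1, 15.6 and 15.7 CPM in the 3 ESC lines (log2 change -1.77, adjusted p = 0.0072), and its adjusted p was 0.0509 without muscle 1. Another Mybl2 fragment of 1207 bp, singled out after its values were seen, was higher, with 34.2, 44.3 and 23.9 CPM in the 3 muscle libraries and 1.45, 0.803 and 1.32 CPM in the 3 ESC lines (log2 change 4.82, adjusted p = 0.000106). Pou5f1 (Oct4), Nanog and Sox2, the core factors of pluripotency, had no tested fragment.

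HOX genes, which set position along the body axis, gave 10 higher and 0 lower of 16 tested fragments, with a median of 2.75. Among the uncalled fragments 3 had negative changes, and 13 were higher with the second CGR8 library alone. With the fragments outside CpG islands alone 6 were higher and 0 lower of 12, with a median of 1.67. Without muscle 3, with DESeq2 or with the replicate numbers as a block 1 fragment was lower, and with library totals 2 were. With no filter on low counts 13 were higher and 2 lower of 49, and the median fell to 0.76. Hoxa2 had 178, 213 and 71.7 CPM in muscle 1, 2 and 3, against 2.67, 5.0 and 1.97 CPM in CGR8, RD1 and E14Tg2 at its promoter (log2 change 5.58, SE 0.59, adjusted p = 0.000143). Hoxc5, singled out after its values were seen at a fragment shared with Gm20398 and Mir615, had 337, 357 and 101 CPM in the 3 muscle libraries and 2.94, 9.01 and 4.5 CPM in the 3 ESC lines at its promoter island (log2 change 5.601, adjusted p = 0.000253). At both HOX fragments muscle 3 was the lowest muscle library and the groups were separate. Other homeobox genes gave 43 higher and 17 lower of 88, with a median of 1.17. With no filter they gave 46 higher and 21 lower of 243, with a median of 0.49. Hmx2, a factor of the inner ear and hypothalamus, had 5.58, 8.2 and 3.82 CPM in the 3 muscle libraries and 0.175, 0.268 and 0.219 CPM in the 3 ESC lines in its promoter island (log2 change 4.70, adjusted p = 0.000376). Nkx2-6, a factor of the pharynx, was lower in an island exon, with 1 read in the 3 muscle libraries together and 11.7, 12.7 and 11.1 CPM in the ESC lines. The ratio of ESC to muscle was 285 (exact 95% counting interval 50.9 to 11285, adjusted p = 0.000128), and the 16 other libraries had 0 to 1.05 RPM.

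T-box genes gave 5 higher and 2 lower of 9 tested fragments, with a median of 2.96, and 5 higher and 0 lower when scaled within length classes. With the fragments outside CpG islands alone, 1 was higher and 2 lower of 5, with a median of 0.17. With no filter on low counts 7 were higher and 3 lower of 30, with a median of 0.46. Eomes, a factor of mesoderm and endoderm formation, had 95.7, 84.3 and 30.3 CPM in muscle 1, 2 and 3, against 1.58, 4.19 and 1.32 CPM in CGR8, RD1 and E14Tg2 at its promoter shore (log2 change 4.89, SE 0.64, adjusted p = 0.000417). The promoter island of T (brachyury), singled out after its values were seen, had 16.3, 34.5 and 7.97 CPM in the 3 muscle libraries and 0.745, 2.86 and 1.1 CPM in the 3 ESC lines (log2 change 3.65, adjusted p = 0.00315). Both promoters were low in each ESC line. Tbx5, a factor of heart and forelimb, was lower in an intron, with 15.6, 15.5 and 35.4 CPM in the 3 muscle libraries and 75.2, 66.4 and 68.3 CPM in the 3 ESC lines (log2 change -1.66, adjusted p = 0.00791), and was not called within length classes (adjusted p = 0.0861). Genes of endoderm and epithelium gave 13 higher and 3 lower of 26, with a median of 1.26. With library totals 9 were higher and 7 lower, and without muscle 1 or without E14Tg2 9 were higher. With all groups in one fit 6 were higher and 3 lower of 30. With no filter 13 were higher and 3 lower of 64, with a median of 0.66. Krt8, a keratin of simple epithelia that ESC also make, had 98.5, 149.8 and 53.5 CPM in muscle 1, 2 and 3, against 7.5, 10.8 and 7.13 CPM in CGR8, RD1 and E14Tg2 across its start (log2 change 3.57, SE 0.46, adjusted p = 0.000371). Muscle was above ESC throughout at Krt8. Grhl3, an epidermal factor, was lower at an exon, with 3.09, 4.56 and 8.3 CPM in the 3 muscle libraries and 22.3, 30.6 and 28.7 CPM in the 3 ESC lines (log2 change -2.35, adjusted p = 0.00288). Cdh1 (E-cadherin), singled out after its values were seen, was higher at an intronic fragment of 875 bp, with 62.2, 88.8 and 79.4 CPM in the 3 muscle libraries and 4.96, 7.23 and 5.92 CPM in the 3 ESC lines (log2 change 3.67, adjusted p = 0.000103), and lower at an exon fragment of 1864 bp, with 4.63, 9.42 and 8.85 CPM in the 3 muscle libraries and 24.6, 32.8 and 41.7 CPM in the 3 ESC lines (log2 change -2.11, adjusted p = 0.00311).

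**Figure D4:**
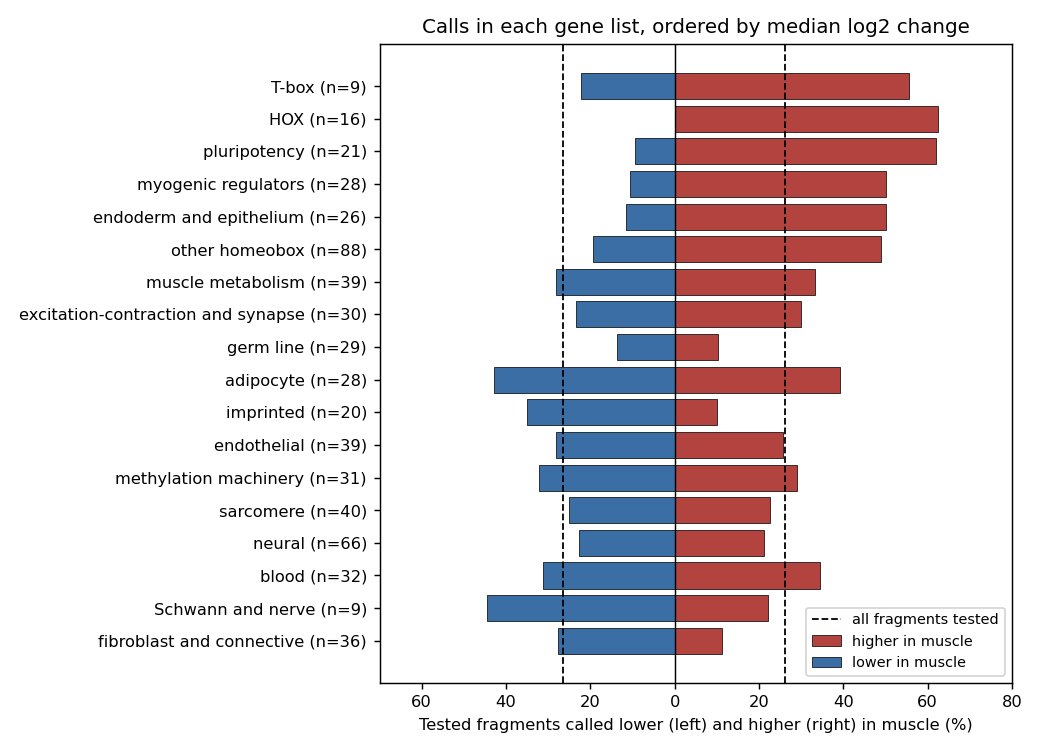
Percent of each list's tested fragments called higher (red, to the right) and lower (blue, to the left) in muscle, with the number tested in brackets and dashed lines at the percent of all fragments tested. T-box, HOX, pluripotency, myogenic, endoderm and other homeobox genes reach from 48.9% to 62.5% higher, against 26.2% of all fragments tested.

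Genes that place, read or remove methylation gave 9 higher and 10 lower of 31 tested fragments (4 lower without muscle 1), with a median of -0.10 that ranged from -0.61 to 0.35 over the scalings. Dnmt3b, the de novo enzyme that ESC make in large amounts, had 32.8, 41 and 12.9 CPM in muscle 1, 2 and 3, against 0.833, 2.5 and 1.32 CPM in CGR8, RD1 and E14Tg2 in the shore fragment 680 bp after its start (log2 change 4.23, SE 0.63, adjusted p = 0.000725). The groups were separate, and muscle 3 was again the lowest muscle library. Setdb1, the histone methyltransferase that silences retroviruses, had 38.2, 93.7 and 15 CPM in muscle 1, 2 and 3, against 1.4, 5.53 and 1.65 CPM in CGR8, RD1 and E14Tg2 at its promoter island (log2 change 4.10, SE 0.80, adjusted p = 0.00284). At Setdb1 muscle 2 was the highest library, and the groups did not overlap. Tet3, a methylcytosine oxidase, was higher at an intronic fragment of 904 bp, with 73.8, 109 and 67.7 CPM in the 3 muscle libraries and 0.351, 0 and 0.11 CPM in the 3 ESC lines (log2 change 8.71, adjusted p = 5.42e-05), a fragment singled out after its values were seen. It was lower at a shore fragment 1621 bp after its start, with 1.42, 1.37 and 0.655 CPM in the 3 muscle libraries and 4.43, 22.5 and 31.5 CPM in the 3 ESC lines (log2 change -4.08, adjusted p = 0.00243). That shore fragment differed between the CGR8 libraries, with 0.232 RPM in the first and 11.2 in the second.

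Imprinted genes gave 2 higher and 7 lower of 20 tested fragments, 1 higher without muscle 1, without RD1 or without E14Tg2, and the median was -0.02, ranging from -0.54 to 0.43 over the scalings. Phlda2, a maternally expressed growth inhibitor of the placenta, had 217, 326 and 101 CPM in muscle 1, 2 and 3, against 16.1, 20.2 and 8.77 CPM in CGR8, RD1 and E14Tg2 in an island over its exon (log2 change 3.83, SE 0.53, adjusted p = 0.000528). Airn, the long RNA that silences the Igf2r cluster, was lower in an intron, with 10.9, 11.8 and 19.7 CPM in muscle 1, 2 and 3, against 74.2, 54.1 and 68.4 CPM in CGR8, RD1 and E14Tg2 (log2 change -2.21, SE 0.37, adjusted p = 0.00127). The 16 other libraries had 28.7 to 142 RPM at Airn, so the muscle libraries were the low ones. The tested protocadherin fragments numbered 3, of which 1 was higher. It lies in the gamma cluster, whose members share exons, and had 579.7, 431 and 615 CPM in the 3 muscle libraries and 273, 108 and 84.9 CPM in the 3 ESC lines (log2 change 1.80, adjusted p = 0.00952). Germ line genes gave 3 higher and 4 lower of 29, with 6 higher without muscle 2. The count became 11 higher and 3 lower of 30 with the whole table in the fit and 9 higher and 3 lower of 30 within length classes, and the median of 0.07 ranged from -0.39 to 0.53 over these settings. The groups did not overlap at Pcdhgc5, nor at the germ line fragments named next. Nanos2, an RNA-binding protein of male germ cells, had 4.51, 3.34 and 1.09 CPM in the 3 muscle libraries and 28.9, 27.2 and 35.5 CPM in the 3 ESC lines upstream of its start (log2 change -3.36, adjusted p = 0.00106). Rnf17, a spermatid protein, had 493, 184 and 510.0 CPM in the 3 muscle libraries and 181, 98.9 and 96 CPM in the 3 ESC lines upstream of its start (log2 change 1.66, adjusted p = 0.0135), with adjusted p = 0.0525 without muscle 1 and 0.061 without E14Tg2.

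Genes of the other cells that whole muscle holds were counted in the same way, and so was a separate list of neural genes. Blood genes gave 11 higher and 10 lower of 32 (median -0.45), endothelial genes 10 and 11 of 39 (median -0.04), fat cell genes 11 and 12 of 28 (median 0.04), Schwann and nerve genes 2 and 4 of 9 (median -0.47), and neural genes 14 and 15 of 66 (median -0.36). Leaving out muscle 1 changed the lower counts to 6 for endothelial, 1 for Schwann and nerve and 8 for neural genes, and without RD1 there were 9 lower neural fragments. Schwann and nerve genes had 2 lower fragments without muscle 2 or without E14Tg2, and fat cell genes 7 higher without E14Tg2. These medians changed sign over the 4 scalings for blood, endothelial, fat cell and neural genes. For Schwann and nerve genes the median of the same 9 fragments was -0.0083 with the whole table in the fit and 0.16 within length classes. Over the 10 fragments tested with the whole table in the fit it was 0.26. Fibroblast and connective tissue genes gave 4 higher and 10 lower of 36, or 2 and 6 without muscle 1, with a median of -0.56 that stayed negative under every alternative run. 

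The genes named next were taken by rule, 1 called fragment per list and direction, so their lying on both sides was fixed in advance. Col15a1, a basement membrane collagen, had 13.5, 7.75 and 19.12 CPM in muscle 1, 2 and 3, against 96.4, 83.9 and 79 CPM in CGR8, RD1 and E14Tg2 in an intron (log2 change -2.68, SE 0.40, adjusted p = 0.000754). Thy1, a surface protein of fibroblasts and other cells, had 4.27, 5.16 and 2.4 CPM in the 3 muscle libraries and 0.351, 1.25 and 0.987 CPM in the 3 ESC lines at its promoter shore (log2 change 2.23, adjusted p = 0.0147), with adjusted p = 0.0555 without muscle 1 and 0.0529 with library totals. Bcl11b, a T cell factor, had 62.7, 66.1 and 19.12 CPM in muscle 1, 2 and 3, against 0.658, 1.34 and 0.548 CPM in CGR8, RD1 and E14Tg2 at its promoter island (log2 change 5.85, SE 0.65, adjusted p = 0.000184). Bcl11b and Thy1 were high in muscle, and Col15a1 was low. Csf1r, the macrophage growth factor receptor, had 0.237, 0.759 and 0.328 CPM in the 3 muscle libraries and 1.93, 4.91 and 5.81 CPM in the 3 ESC lines at its promoter (log2 change -3.26, adjusted p = 0.00433). Acaca, the cytosolic acetyl-CoA carboxylase, had 92.2, 153 and 26.5 CPM in the 3 muscle libraries and 1.32, 6.78 and 2.41 CPM in the 3 ESC lines at the promoter island it shares with Tada2a (log2 change 4.71, adjusted p = 0.00152). Lep, the fat cell hormone leptin, had 3.92, 4.86 and 5.57 CPM in the 3 muscle libraries and 15.5, 29.2 and 28.4 CPM in the 3 ESC lines at its promoter shore (log2 change -2.34, adjusted p = 0.00195). At these fragments too the muscle and ESC values did not overlap. Erbb3, the neuregulin receptor of Schwann cells, had 167, 279 and 80.6 CPM in the 3 muscle libraries and 18.6, 12.4 and 7.35 CPM in the 3 ESC lines in an exon (log2 change 3.77, adjusted p = 0.000709). Cdh19, a cadherin of Schwann cell precursors, had 3 reads in muscle and 88 in ESC, a ratio of ESC to muscle of 16.4 (exact 95% counting interval 5.44 to 81.2, adjusted p = 0.00581). Slc6a4, the serotonin transporter, had 191, 252 and 54 CPM in the 3 muscle libraries and 20.7, 23.8 and 11.6 CPM in the 3 ESC lines at its promoter island (log2 change 3.14, adjusted p = 0.00213). Erbb3 and Slc6a4 were above ESC in every muscle library. Shank1, a scaffold of synapses, had 0.475, 0.456 and 0 CPM in the 3 muscle libraries and 49.5, 15.4 and 15.4 CPM in the 3 ESC lines in an intron (log2 change -6.45, adjusted p = 0.000586), and the 16 other libraries had 0 to 1.22 RPM. The part that the mixture of cells has in any of these values was not tested.

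Single genes could carry calls in both directions. Eng, the endothelial TGF-beta coreceptor endoglin, had 263, 212 and 161 CPM in muscle 1, 2 and 3, against 32.8, 13.7 and 8.88 CPM in CGR8, RD1 and E14Tg2 at a fragment 656 bp after its start (log2 change 3.51, SE 0.53, adjusted p = 0.000771). A fragment 1387 bp before the same start had 1.78, 2.13 and 1.75 CPM in muscle 1, 2 and 3, against 4.47, 17.4 and 23.6 CPM in CGR8, RD1 and E14Tg2 (log2 change -2.998, SE 0.65, adjusted p = 0.00452), and this one also belongs to Ak1. Of 5068 genes with a tested fragment, 1514 had higher calls and no lower one, and 1489 had lower calls and no higher one. Calls in both directions need 2 or more tested fragments, which 1904 genes had, and 428 genes had such calls. Fragments that are direct neighbours share a site. Of 2219 such pairs with both fragments tested, 389 were both higher, 227 both lower and 112 called in opposite directions, while 874 had 1 of the 2 called. Rbpms, an RNA-binding protein gene singled out after its values were seen, had 8 of 8 tested fragments higher. Cad, the enzyme of pyrimidine synthesis, singled out in the same way, had 5 of 5 lower.

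Repeat classes overlapped between the groups, with 1 exception. L1Md fragments took 2.95%, 2.51% and 3.92% of the reads of muscle 1, 2 and 3, against 2.58%, 3.61% and 3.22% in CGR8, RD1 and E14Tg2 (exact permutation p = 1). IAP fragments, from the retrovirus-like elements that stay methylated in most tissues, took 1.15%, 0.765% and 1.63% of muscle reads, against 1.00%, 1.06% and 1.12% of ESC reads (exact permutation p = 0.7). SINE fragments other than B1 took 11.7%, 10.8% and 12.7% of muscle reads, against 14.2%, 13.3% and 13.8% of ESC reads, and the groups did not overlap (exact permutation p = 0.1). Families differed among themselves, and those named next were singled out after their values were seen. L1Md_A gave 318 higher and 131 lower of 986 tested fragments, with a median of 0.71, while L1Md_T gave 35 higher and 58 lower of 168, with a median of -0.98. The LTR family RLTR10A gave 12 higher and 74 lower of 130, with a median of -1.42 that lay between -1.87 and -0.99 under the other scalings and at -1.43 within length classes. Copies of a family share sequence, so reads may be split among them.

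The largest changes lay at fragments with no read in 1 group. Gtf2h1, a subunit of transcription factor TFIIH, had 108, 205 and 30.1 CPM in muscle at the promoter island it shares with Hps5, and no read in ESC. It was at least 1505-fold higher in muscle against a floor of 3 reads over the ESC group (adjusted p = 0.000265). Tagln3, a neuronal actin-binding protein gene, was at least 1495-fold higher and Zfp112, a zinc finger gene, at least 1359.6-fold higher, both near their start. In the other direction Specc1 had no read in muscle and 297, 145 and 161 CPM in the ESC lines, at least 1841-fold lower in muscle. Pex6, a peroxisome assembly factor, was at least 899-fold lower, and Lphn1, a latrophilin receptor gene, at least 378-fold lower. In all, 65 tested fragments had no read in ESC and 32 had none in muscle, and each of these 97 was called. Such a fragment passes the filter through the reads of the other group alone, so these calls were close to fixed in advance. Of the 65, 33 were intergenic, beside 6366 of all 15287 fragments tested. Reads in each of the 16 other libraries were present at 41 of the 65, and the same count over all tested fragments was not made. Of the 32, 6 had reads in each of the 16 other libraries and 2 had none in any.

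The 16 other libraries, which are of C57BL/6J mice, place muscle and ESC against a wider range. At 649 of the 4070 fragments called lower (15.9%), the muscle libraries and the 16 others all lay under the lowest ESC library, and at 60 of the 4070 the 16 others were under 1 RPM throughout. Anxa8, an annexin gene with one of the smallest adjusted p-values, had 1.66, 2.13 and 1.2 CPM in muscle 1, 2 and 3, against 139.7, 116 and 118 CPM in CGR8, RD1 and E14Tg2 upstream of its start (log2 change -6.23, SE 0.41, adjusted p = 3.30e-05), and the 16 others had 0.231 to 4.55 RPM. Ttc34 had 0.594, 0.152 and 0.218 CPM in muscle 1, 2 and 3, against 383, 237 and 224 CPM in CGR8, RD1 and E14Tg2 in an exon (log2 change -9.70, SE 0.60, adjusted p = 3.30e-05), and the 16 others had 0 to 5.09 RPM. At such fragments a difference of strain and one of cell type cannot be told apart. Ptchd2 differed from these, with 0.119, 0.152 and 0.328 CPM in the 3 muscle libraries and 49.9, 57.2 and 51.4 CPM in the 3 ESC lines in an intron (log2 change -7.93, adjusted p = 3.30e-05), while the 16 others ranged over 0 to 40.5 RPM. At 1243 of the 4070 (30.5%) the muscle libraries instead lay under all 20 others. Airn and Cacng1 are of this kind, and the 16 others had 144 to 631 RPM at Cacng1. The counts of 649 and 1243 cover called fragments alone, and the same counts over all fragments tested were not made. A call nearly always came with a gap between muscle and ESC, so part of each count follows from the call.

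Among fragments called higher, the muscle libraries and the 16 others all lay above the highest ESC library at 950 of 3998 (23.8%), and the muscle libraries lay above all 20 others at 348 (8.70%). Here too the counts cover called fragments alone and were not made over all fragments tested. Aox4, an aldehyde oxidase gene, had 398, 368 and 215 CPM in muscle 1, 2 and 3, against 0.57, 0.535 and 0.329 CPM in CGR8, RD1 and E14Tg2 in an intron (log2 change 9.34, SE 0.51, adjusted p = 3.30e-05), and the 16 others had 25.7 to 272 RPM. Pcp4l1 had 307, 269 and 144 CPM in the 3 muscle libraries and 0.658, 1.07 and 0.548 CPM in the 3 ESC lines in an intronic shore (log2 change 8.29, adjusted p = 3.30e-05), and Padi1, a peptidylarginine deiminase, had 88.6, 156 and 90.4 CPM in the 3 muscle libraries and 0.307, 0.446 and 0.219 CPM in the 3 ESC lines at its promoter (log2 change 8.37, adjusted p = 3.30e-05). In islands 9 of 546 higher fragments were of the first kind and 0 of the second. Zfp112, Ckm and Ldb3 show wide ranges among the cultures, and Ldb3 had 0 to 17.4 RPM in the 16 others.

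**Figure D5:**
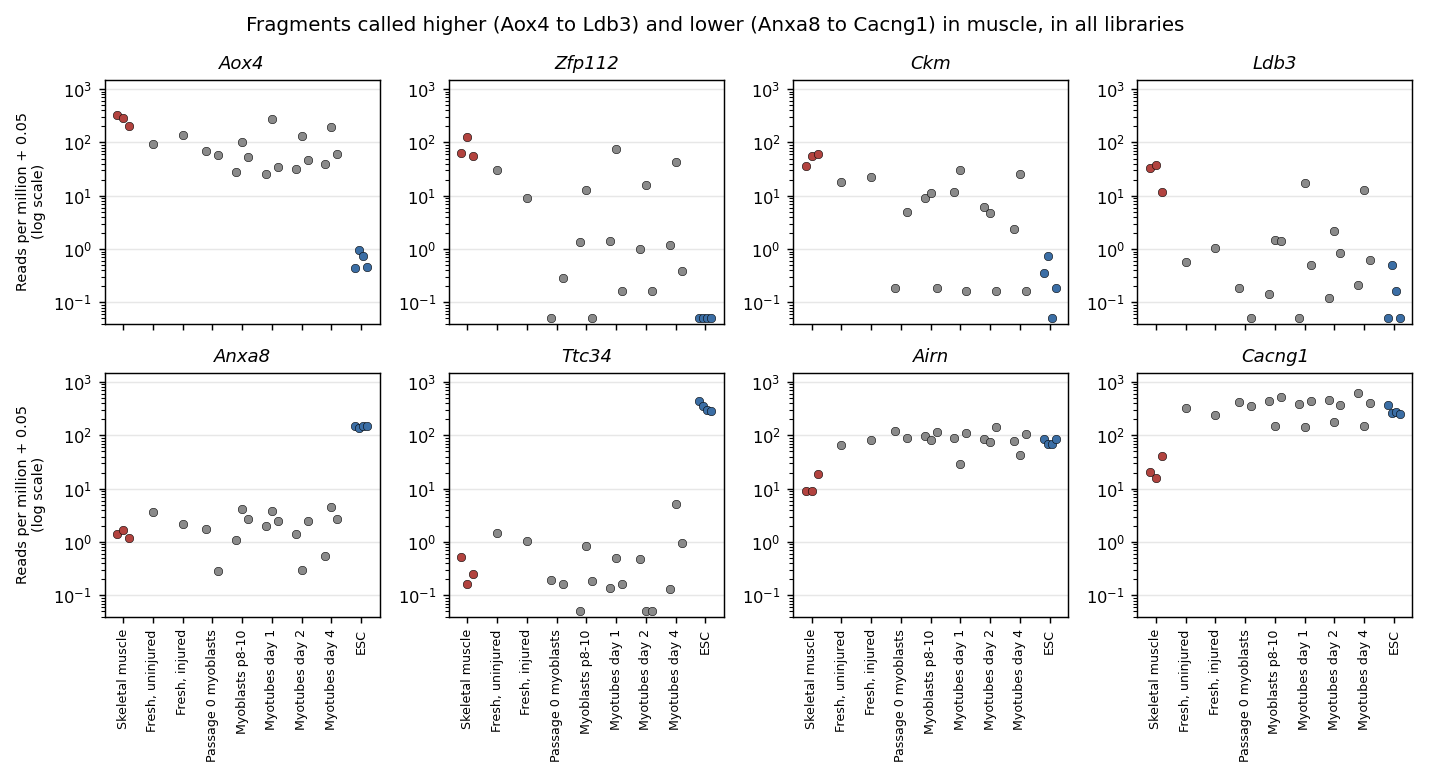
RPM plus 0.05 (y axes, log scale) of 8 named fragments in all libraries, 1 point each, with muscle (red) on the left, the cultures and fresh cells (grey) in order of stage and the 4 ESC libraries (blue) on the right. ESC stands alone as low at Aox4 and as high at Anxa8 and Ttc34, and muscle stands alone as low at Airn and Cacng1.

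The authors' deposited table of the same comparison, made with DESeq on the 4 ESC libraries kept apart, holds 15264 of the 15287 fragments tested here. With its adjusted p from per condition dispersion under 0.05, the authors' deposited table calls 11042 of them, 3830 higher and 7212 lower in muscle. Of these, 7716 were called here as well, 69.9% of the calls in the authors' deposited table and 95.8% of those made here, and 7716 had the same direction. With its adjusted p from pooled dispersion, the authors' deposited table calls 9419, of which 7042 were called here too, 74.8% of its calls and 87.5% of those made here, and 7042 had the same direction. Both rest on the same libraries, so this is no independent evidence.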

How the data were processed

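AIMS-seq libraries were sequenced on an Illumina Genome Analyzer, and reads were aligned to mm9 with Bowtie 0.11.3, per the submitters' processing notes, which also name DESeq. One deposited table gives, for each fragment, the raw read count in every library. A second deposited table holds the authors' log2 fold changes and adjusted p-values for this comparison. All value columns matched a labelled library.

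Counts of 3 muscle libraries and 3 ESC lines (both CGR8 libraries summed) were filtered with filterByExpr (minimum count 10), scaled by TMM and tested with edgeR 4.0.16 (quasi-likelihood, Benjamini-Hochberg, threshold 0.05) in R 4.3.3. CPM are scaled the same way. RPM are reads scaled by the library's total over the fragments compared. A read count rises with the number of molecules methylated at both ends, with amplification and with depth. The main fit was also run on simulated counts with the same spread at every fragment. That run does not cover the differences between libraries or between scalings described above. Fragments were assigned to genes of GENCODE M1 (mm9) by body or the 2000 bp upstream, and a promoter runs from 2000 bp before to 500 bp after a start.

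The members and gene lists were chosen with earlier results of these data known. Per list and direction, 1 or 3 called fragments were named, promoters first and then by adjusted p, plus the 3 with the largest change and the 3 with the smallest adjusted p, and Myf5, Myod1, Acta1 and Dnmt3b whatever their result. One gene that this rule names is not reported here. Read shares were compared by two-sided exact permutation tests.

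The labels give no shared animal or batch for same-numbered samples. Their deviations from the group means correlated at 0.195, 0.166 and 0.123, so a fit with the replicate number as a block was run beside the main one. Alternatives were other scalings, filters and length limits, other uses of the CGR8 libraries, DESeq2 1.42.0, all groups in one fit, and leaving out each library or line. Scaling within length classes and a fit outside islands were added after seeing the data. Fragments on sex chromosomes or of 2000 bp and more entered 1 alternative only.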

Additional observations from a re-analysis of the deposited data

How the results depend on the processing

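The counts of 3998 higher and 4070 lower fragments stayed within 1.5 times under the alternatives run, with 2 exceptions. One was the fit of all groups together (2500 higher, 2255 lower), and the other was the fit without muscle 1. Leaving out 1 muscle library or 1 ESC line gave 3253 to 4398 higher and 2416 to 4748 lower. The first CGR8 library alone gave 3072 and 2983, and the second alone 4445 and 4480. The replicate block gave 4084 higher and 4241 lower, and of the named calls it ended that of Xirp1 alone. DESeq2 gave 4641 and 4013. No filter gave 4599 and 4901. Read shares were rerun for islands, shores, promoters, introns, SINE fragments other than B1 and the length classes from 200 bp up. Their differences kept their direction, and the other classes were not rerun. Of 68 named calls, 49 held in each setting in which they were tested, 19 were lost in some with the same direction, and 0 reversed. The fit of all groups ended the calls of Six5, Mef2d, Tnni2, Xirp1, Dok7, Ache, Acadm, Otx2, Mybl2, Rnf17, Pcdhgc5, Setdb1, Tet3, Slc6a4, Acaca and the lower Eng fragment, and the first CGR8 library alone those of Mef2d, Tnni2, Dok7, Rnf17, Thy1 and the lower Eng fragment. Library totals ended those of Dok7 and Thy1. Of the 2 uncalled changes that changed sign, Myf5 was at 0.060 with the whole table in the fit and Acta1 at -0.0033 without muscle 2. Acta1 was called without muscle 3 (1.05). The cause was not tested. At this depth 14058 of 14732 island fragments and 20768 of 22770 fragments under 200 bp had too few reads for a test.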
